A study of Arabidopsis thaliana with 12 samples.

Results

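The regions described here are the H3K27me3 domains of Arabidopsis thaliana seedlings that were still covered in the val1val2 double mutant and had no binding site of VAL1 or VAL2 in or near them. H3K27me3 is trimethylation of lysine 27 of histone H3. Members were chosen by the measured peaks of all 7 lists. Domains were stretches covered by peaks in both Col-0 lists and no shorter than 200 bp. A domain was counted as kept when the union of the 2 val1val2 lists covered at least 50% of it. A VAL site was any VAL2-GFP summit, or a VAL1-GFP summit in a stretch covered by both VAL1-GFP lists, and a domain was counted as without one when none fell inside it or up to 1 kb from its ends. Of 8155 domains, 2209 met these conditions (27.1%, 95% exact binomial interval 26.1 to 28.1%, counting error only). They held 4.41 Mb, or 26.9% of the length of all domains.

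The study profiled chromatin of 14-day-old seedlings of the Col-0 ecotype by chromatin immunoprecipitation and sequencing (ChIP-seq). The 12 samples were val1val2 precipitated for H3K27me3 (2 replicates), Col-0 precipitated for H3K27me3 (2 replicates), VAL1-GFP in the val1 mutant and VAL2-GFP in the val2 mutant precipitated with an antibody to GFP (2 replicates each), and 4 inputs, 1 for each genotype or tagged line. Seeds had been stratified for 3 days at 4 °C, and plants were raised on agar plates with sucrose at 22 °C with 16 h light and 8 h dark. Peak lists of 7 samples were used, and the other VAL2-GFP sample and the inputs were not analysed here. All groups shared the Col-0 background and whole seedlings as material, so a value averages over all cell types, and a weaker mark in every cell and a mark in fewer cells cannot be told apart. The labels give neither the promoter of the GFP fusions nor the plants behind each replicate, and differences between replicates could be purely technical.

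Polycomb repressive complex 2 places H3K27me3 over genes that are silent in a given tissue, and in seedlings its known targets include embryo, seed and flower regulators. VAL1 and VAL2 are repressors with a B3 domain that binds the RY element, and they are known to help recruit Polycomb complexes to seed genes and to flowering regulators. Other recruitment elements described in Arabidopsis are the telobox and GA-rich repeats, which are bound by other families of transcription factors.

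Stretches near a gene start are given for 6 of the longest or most enriched domains without a VAL site. Bases are in lower case, with motif matches in capitals. Each stretch was centred on a match to the telobox core or the GA repeat. A match in each was thus fixed by the choice, and the stretches do not show how common these motifs were. Capitals mark the telobox core (AAACCCT, or AGGGTTT on the other strand) and the GA repeat (GAGAGA, or TCTCTC on the other strand), and neighbouring matches can overlap. The sequences are the plus strand of TAIR10.1. The stretch of TCP1, a TCP-family transcription factor gene, was chr1:25169626-25169745 and spanned the start of the gene. That of AT5G22150 was chr5:7346808-7346927, between AT5G22150 and the start of AT5G22160. That of AT1G49110 was chr1:18170201-18170320, between the divergent starts of AT1G49100 and AT1G49110. That of AT4G32860 was chr4:15857269-15857388, inside the gene near its start. That of AT1G63105 was chr1:23403936-23404055, upstream of the gene. That of BCP1, named for a Brassica pollen protein, was chr1:8688633-8688752, inside the gene near its start.
TCP1: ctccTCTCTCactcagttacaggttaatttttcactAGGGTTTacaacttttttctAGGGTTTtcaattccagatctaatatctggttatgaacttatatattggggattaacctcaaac
AT5G22150: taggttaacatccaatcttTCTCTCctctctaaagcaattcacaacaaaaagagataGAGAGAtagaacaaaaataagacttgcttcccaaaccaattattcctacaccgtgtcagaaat
AT1G49110: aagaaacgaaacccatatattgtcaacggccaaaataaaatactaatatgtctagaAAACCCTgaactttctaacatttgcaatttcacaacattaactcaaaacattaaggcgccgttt
AT4G32860: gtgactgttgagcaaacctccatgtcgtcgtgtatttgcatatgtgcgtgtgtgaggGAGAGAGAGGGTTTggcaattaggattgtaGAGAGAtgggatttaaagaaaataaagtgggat
AT1G63105: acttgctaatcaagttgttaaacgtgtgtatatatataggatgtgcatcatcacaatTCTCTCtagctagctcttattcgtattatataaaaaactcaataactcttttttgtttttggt
BCP1: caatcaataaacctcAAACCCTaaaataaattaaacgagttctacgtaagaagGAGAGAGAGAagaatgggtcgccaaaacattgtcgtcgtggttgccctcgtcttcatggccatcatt

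A second set shows that the letters of the RY core (TGCATG, with CATGCA as its reverse) occurred in domains without a VAL site. These stretches were chosen after the values were seen. VAL1 summits present in 1 list only, which do not count as a site, lay in or within 1 kb of 3 of the 4 domains shown: 5 at WOX5, 3 at AT1G03890 and 2 at AGL24, and 0 at WOX11. They are the plus strand of TAIR10.1 at chr3:3525639-3525718 upstream of WOX5, chr1:989919-989998 inside AT1G03890, chr3:891396-891475 inside WOX11 and chr4:12672676-12672755 inside AGL24. In AT1G03890 the forward and the reverse core overlapped in 1 run of 8 bases. In AGL24 the capitals also mark a GA repeat.
WOX5: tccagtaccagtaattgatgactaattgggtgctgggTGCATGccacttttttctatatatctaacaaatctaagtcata
AT1G03890: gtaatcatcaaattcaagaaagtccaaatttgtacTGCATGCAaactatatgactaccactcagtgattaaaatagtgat
WOX11: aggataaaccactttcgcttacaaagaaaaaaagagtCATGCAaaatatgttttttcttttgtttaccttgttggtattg
AGL24: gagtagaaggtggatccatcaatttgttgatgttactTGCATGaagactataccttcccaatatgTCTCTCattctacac

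Across the 4 libraries, the domains without a VAL site carried a modest level of the mark in both genotypes. Fold enrichments are the authors' MACS2 values for the whole peak that overlapped a domain most. Their median was 1.86 and 1.86 in val1val2 replicates 1 and 2, against 1.75 and 1.74 in Col-0 replicates 1 and 2. Peak lengths, here and below, are the summed length of all peaks of a list that touched a domain. A domain lies in a single peak of each Col-0 list by construction, whereas several val1val2 peaks can touch it and add up. The summed lengths had medians of 2500 and 2501 bp in the mutant lists, against 1902 and 2020 bp in the Col-0 lists. The mean share of a domain covered was 92.5% and 91.9% in the 2 val1val2 lists, against 100% in both Col-0 lists by construction. In val1val2 replicate 1 only 10 of the 2209 domains had no peak, and in replicate 2 only 13. A peak was present in all 4 lists at 2186 domains.

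**Figure D1:**
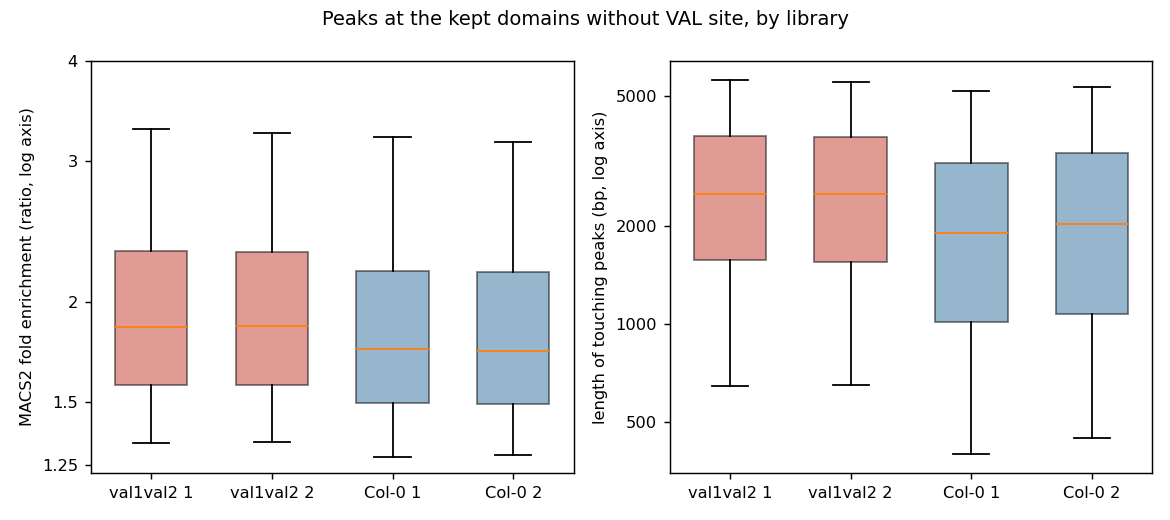
Box plots of the MACS2 fold enrichment (left, log axis) and the length of the touching peaks in bp (right, log axis) at the kept domains without VAL site, for val1val2 and Col-0 replicates. Boxes show quartiles and median, whiskers the 5th and 95th percentiles, over the domains with a peak in that library; the 2 val1val2 medians (1.86 and 1.86) lie above the 2 Col-0 medians (1.75 and 1.74).

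Most of the domains were covered to their full length in the mutant. The union of the val1val2 lists covered 1261 domains completely (57.1%), and both lists did so at 887 (40.2%). At 1825 domains the union covered at least 90%, and at 2126 (96.2%) each list alone covered at least 50%. Among the 2837 kept domains with both a VAL1 and a VAL2 site, the union covered 39.0% completely. It so covered 52.7% of kept domains with a VAL2 site only and 40.2% of those with a VAL1 site only. Of all domains without a VAL site, 2209 of 2378 were kept (92.9%, interval 91.8 to 93.9%). Of those with VAL1 and VAL2 sites, 2837 of 3735 were kept (76.0%, interval 74.6 to 77.3%). Domains with a VAL2 site only (88.4%) and with a VAL1 site only (82.3%) lay between. The gap between no site and both sites was present in both length classes. It was 85.3% against 64.3% of domains under 1000 bp, and 96.5% against 80.5% of domains of 1000 bp or more. These shares use the rule's own calls, cover from the val1val2 lists and sites from the GFP lists, and were not tested.

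Domain by domain, higher enrichment in the mutant was more frequent than lower enrichment. Both val1val2 values lay above both Col-0 values at 1067 of 2186 domains (48.8%; over all 7074 domains with a peak in all lists the share was 42%). Both lay below at 644 domains (29.5%; over all domains 38.3%). The summed peak length was longer in both val1val2 lists at 1008 domains (46.1%; over all domains 37.9%) and shorter in both at 458 (21.0%; over all domains 34.5%). At kept domains with a VAL2 site only, 46.2% had longer and 25.7% shorter peaks. At kept domains with both sites, 32.7% had longer and 42.0% shorter peaks. The rule used these lists, so nothing is read from the shares, and the smallest p of an exact two-sided permutation test over these 4 libraries would be 0.33. The sizes were small: the median log2 ratio of fold enrichment, val1val2 over Col-0, was 0.049 with quartiles of −0.087 and 0.21, against −0.012 at kept domains with VAL1 and VAL2 sites and 0.0082 over all domains. The median size of the log2 difference was 0.15 between genotypes, against 0.040 between the val1val2 replicates and 0.050 between the Col-0 replicates. A difference of at least 1 on the log2 scale upward was seen at 20 domains and downward at 0. The same counts were 16 and 38 among 2808 kept domains with both sites, and 45 and 73 over all 7074 domains.

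The balance varied with domain length. Among domains under 1000 bp, both val1val2 values were above Col-0 at 63.9% and below at 12%, against 48.1% and 32.1% of kept domains with both sites. Among those from 1000 to under 2000 bp the shares were 48.1% and 30.5%, against 29.7% and 50.7% with both sites. Among those of 2000 bp or more they were 39.0% and 40.7%, against 39.3% and 43.3% with both sites. Median fold enrichment in the shortest class was 1.81 in val1val2, against 1.54 in Col-0, and in the longest class 1.87 in val1val2, against 1.86 in Col-0. Domain ends were set by the Col-0 lists alone. The val1val2 lists also held more peaks in all, 9925 and 10024, against 8324 and 8325 in Col-0, and covered 19.2 and 19.3 Mb, against 17.5 and 17.8 Mb. With the 8324 strongest peaks of each list the median log2 ratio was 0.061, and with peaks of a −log10 q of at least 10 in every list it turned to −0.032.

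The mark was weaker than at kept domains bound by both proteins. There, median fold enrichment was 2.14 in both val1val2 lists and 2.16 in both Col-0 lists. A −log10 q of at least 10 in all 4 lists was reached by 422 of the domains without VAL site (19.1%, interval 17.5 to 20.8%), against 37.5% of those with both sites (interval 35.7 to 39.3%). Over all domains, 25.3% reached a −log10 q of at least 10 in all 4 lists. A −log10 q of at least 2 in all 4 lists was reached by 1542 (69.8%), against 82.8% with both sites and 66.4% over all domains. The domains without VAL site were also shorter than those with both sites, with medians of 1665 bp (quartiles 853 and 2818 bp) and 1943 bp. The median was 1788.5 bp with a VAL2 site only, 2079 bp with a VAL1 site only and 1701 bp over all domains. A longer domain leaves more room for a VAL site, so length and the absence of a site are linked by the rule.

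Some of the covered genes were developmental regulators. Of 106 genes in 10 lists of seed, flower, meristem, auxin, imprinted and reference genes, 80 were covered over at least 20% by a domain of any kind, and 15 of these by domains without a VAL site. Over all protein-coding genes under any domain, that share was 27.3%. The 15 came from all 8 developmental lists: 1 of 8 seed maturation regulators, 1 of 13 seed storage and oleosin genes, 3 of 13 floral organ identity genes, 2 of 12 flowering time genes, 4 of 18 meristem and KNOX genes, 1 of 6 PLETHORA and BBM genes, 2 of 9 imprinted and endosperm genes and 1 of 13 auxin genes. None of 7 housekeeping genes was covered by any domain, and of 7 photosynthesis genes 2 were covered, neither of them by a domain without VAL site. Over the 15 genes, both val1val2 values were above both Col-0 values at 7, below at 4 and overlapping at 4, with a median log2 ratio of −0.010. Over all domains the shares were 42% above and 38.3% below. A VAL1 summit present in 1 list only lay within 1 kb of the domain at 8 of the 15: AT1G03890, FT, AGL24, KNAT2, WOX5, BBM, PHE1 and YUC2.

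Among the regulators of embryo and seed, LEC1, a subunit of the NF-Y factor that drives embryogenesis, had a small domain of 558 bp inside the gene on chromosome 1. Its fold enrichment was 2.12 and 1.84 in val1val2, against 1.76 and 1.72 in Col-0. Both mutant libraries were above both Col-0 libraries, but the 2 val1val2 values were farther apart than the groups. BBM, an AP2-type factor of embryogenesis, had 2.28 and 2.28 in val1val2, against 1.93 and 2.03 in Col-0. The groups did not overlap, and the nearest VAL site as defined here was 13466 bp away, while 1 VAL1 summit of a single list lay within 1 kb. AT1G03890, a cupin-family gene next to the cruciferin gene CRU2, had 1.78 and 1.76 in val1val2, against 1.67 and 1.95 in Col-0, and the val1val2 values lay between those of Col-0.

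The floral organ identity genes included AG, the MADS-box gene of stamens and carpels, whose domain of 6676 bp was the longest among the listed genes. Its fold enrichment was 1.37 and 1.37 in val1val2, against 1.35 and 1.35 in Col-0, and its touching peaks measured 6502 and 6558 bp in the mutant libraries and 6806 and 6695 bp in Col-0. The groups did not overlap in either measure, yet the mutant held the domain over 97.2% of its length. SHP2, a MADS-box gene of ovules and fruit valve margins, had 2.37 and 2.39 in val1val2, against 2.23 and 2.17 in Col-0. SEP4, which acts with the other organ identity genes, had 1.82 and 2.00 in val1val2, against 1.94 and 1.92 in Col-0. Enrichment at SHP2 was higher in both mutant libraries, and at SEP4 the groups overlapped.

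Both flowering time genes had lower enrichment in the mutant. FT encodes the mobile flowering signal made in leaves. Its fold enrichment was 1.42 and 1.44 in val1val2, against 1.78 and 1.76 in Col-0, a log2 ratio of −0.30. The groups did not overlap, while the domain of 1909 bp stayed covered over 98.1% of its length. A VAL2 summit lay 1102 bp away, just outside the 1 kb limit. AGL24, a MADS-box promoter of flowering, had 1.97 and 1.97 in val1val2, against 2.05 and 2.07 in Col-0.

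The meristem genes included the class I KNOX genes KNAT1 and KNAT2, which keep shoot meristem cells undifferentiated. KNAT2 touched 2 domains without a VAL site. The longer one had fold enrichments of 1.78 and 1.83 in val1val2, against 1.58 and 1.60 in Col-0, with shorter peaks in the mutant libraries (4196 and 4024 bp) than in Col-0 (4801 and 4720 bp). The other, of 1257 bp, had 1.92 and 1.72 in val1val2, against 1.66 and 1.54 in Col-0, with longer peaks in the mutant libraries (2094 and 1517 bp) than in Col-0 (1387 and 1257 bp). KNAT1 had 1.67 and 1.62 in val1val2, against 1.82 and 1.64 in Col-0, with overlapping groups. WOX5, the homeobox gene of the root stem cell niche, had 1.58 and 1.58 in val1val2, against 2.02 and 1.92 in Col-0, and its log2 ratio of −0.32 was the lowest of the 15 listed genes. The val1val2 peaks covered all of the WOX5 gene and 72.5% of the domain of 5356 bp, which reached far upstream. WOX11, a homeobox gene of adventitious root founder cells, had 1.61 and 1.63 in val1val2, against 1.53 and 1.51 in Col-0. Enrichment was thus higher in both mutant libraries at KNAT2 and WOX11, lower in both at WOX5, and overlapping at KNAT1.

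Of the imprinted genes, PHE1, a MADS-box gene of the endosperm, had 1.72 and 1.73 in val1val2, against 1.62 and 1.68 in Col-0. FWA, a homeobox gene that DNA methylation keeps silent in vegetative tissue, had 2.38 and 2.26 in val1val2, against 2.33 and 2.33 in Col-0. At PHE1 the groups did not overlap, and at FWA the val1val2 values lay on both sides of those of Col-0. YUC2, a flavin monooxygenase of auxin synthesis, had 1.47 and 1.48 in val1val2, against 1.63 and 1.57 in Col-0, lower in both mutant libraries. At 5 of the 15 genes (FT, KNAT2, WOX11, FWA and YUC2) a VAL site as defined here lay within 2 kb of the domain. VAL1 summits of a single list were not counted for this.

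**Figure D2:**
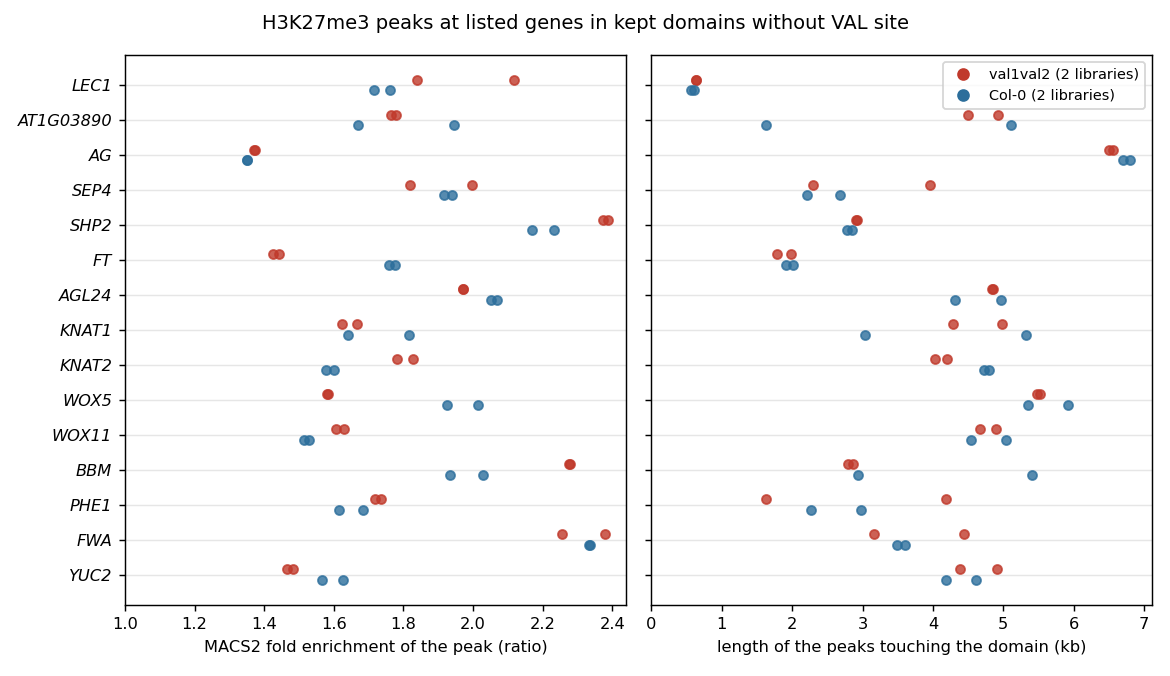
MACS2 fold enrichment (left, ratio) and length of the touching peaks in kb (right) at the 15 listed genes under kept domains without VAL site; each point is 1 library, val1val2 above Col-0 for each gene. FT (1.42 and 1.44 in val1val2, against 1.78 and 1.76 in Col-0) and WOX5 (1.58 and 1.58 in val1val2, against 2.02 and 1.92 in Col-0) show the widest gaps downward.

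The most enriched and the longest domains were different kinds of region. The 10 domains with the highest mean Col-0 enrichment were 1010 to 1557 bp long and had fold enrichments of 3.14 to 5.54 in val1val2, against 4.41 to 5.56 in Col-0. SK13, an SKP1-like subunit of F-box ubiquitin ligases, had 5.54 and 5.24 in val1val2, against 5.27 and 4.90 in Col-0. BCP1 had 5.14 and 5.18 in val1val2, against 4.86 and 4.94 in Col-0. EDA41, an F-box gene named from an embryo sac mutant, had 3.48 and 3.55 in val1val2, against 4.95 and 4.70 in Col-0. Both mutant values were above Col-0 at 2 of the 10 domains and below at 7. The 10 were picked for their Col-0 value, so these counts are not evidence of a direction.

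The 10 longest domains measured 6730 to 9382 bp and were weakly enriched, with 1.33 to 2.05 in val1val2, against 1.31 to 1.65 in Col-0. The longest lay on chromosome 2 over AT2G28990, a leucine-rich repeat kinase gene. It had 1.37 and 1.34 in val1val2, against 1.32 and 1.31 in Col-0, and its peaks measured 8942 and 9749 bp in the mutant libraries and 9382 and 10045 bp in Col-0. TCP1 had 1.39 and 1.40 in val1val2, against 1.34 and 1.35 in Col-0, over a domain of 8226 bp, and its peaks were shorter in the mutant, at 6604 and 6191 bp, than in Col-0, at 8244 and 8288 bp. Of the 10 longest domains, 7 had higher enrichment and 7 had shorter peaks in both val1val2 libraries, and 2 were covered completely. Among domains without a VAL site of 2000 bp or more, 39.0% had higher enrichment and 32.7% shorter peaks. Over all domains without a VAL site, 57.1% were covered completely. The 10 were picked for the length of their Col-0 domain, so these counts are not evidence of a direction.

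The domains that differed most upward were all short and those that differed most downward were longer. Both sets were chosen for their ratio among domains whose groups did not overlap. The 10 highest ratios belonged to domains of 344 to 830 bp, all with longer peaks in both val1val2 libraries. At AT3G08810, a kelch-repeat protein gene, fold enrichment was 5.37 and 5.54 in val1val2, against 1.98 and 2.08 in Col-0, a log2 ratio of 1.43. At AT5G10340, an F-box gene, it was 4.39 and 3.99 in val1val2, against 1.98 and 1.67 in Col-0. At SRS3, a SHI-related factor gene, it was 2.98 and 3.07 in val1val2, against 1.47 and 1.29 in Col-0. All 10 of these domains lay completely under val1val2 peaks.

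The 10 lowest ratios belonged to domains of 940 to 2478 bp. GolS5, a galactinol synthase gene, had fold enrichments of 1.89 and 1.86 in val1val2, against 3.25 and 3.46 in Col-0, a log2 ratio of −0.84. Its peaks were longer in the mutant, at 4248 and 4178 bp, than in Col-0, at 1853 and 1751 bp, and a fold enrichment applies to the whole peak. NRPE3B, which encodes a subunit of the plant-specific RNA polymerase V, had 2.06 and 2.09 in val1val2, against 3.21 and 3.40 in Col-0, with peaks that measured 1605 and 1662 bp in the mutant libraries and 1685 and 1679 bp in Col-0. AT3G21460, a glutaredoxin-family gene, had 1.56 and 1.46 in val1val2, against 2.45 and 2.44 in Col-0. Peaks were shorter in both val1val2 libraries at 6 of the 10 and longer at 4.

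Over genes, the mark ran from just before the start into the body. The domains covered at least 20% of 1908 protein-coding genes (6.95% of 27444), which is 27.3% of the 6979 genes so covered by any domain (25.4% of all). Of these genes, 4 were also covered to that extent by kept domains with VAL1 and VAL2 sites. The classes share no domain, so a gene had to lie under separate domains to count in both. A small overlap follows from the rule. The median gene among the 1908 spanned 1488 bp, whereas genes under any domain had a median of 1620 bp and all genes of 2078 bp. A single exon was annotated for 28.2%, against 29.5% and 20.4%. The domains covered 592 of the 1908 genes completely. At the gene start, 73.3% and 73.2% of the 1908 genes were covered in val1val2, against 69.5% and 70.3% in Col-0. At 1000 bp into the gene the shares were 78.0% and 77.6% in val1val2, against 71.1% and 72.5% in Col-0, and at 1000 bp upstream 36.8% and 36.5% in val1val2, against 36.8% and 37.8% in Col-0. At 500 bp upstream 44.5% and 43.7% were covered in val1val2, against 46.2% and 47.1% in Col-0, with both val1val2 shares below both of Col-0. The 2770 genes under kept domains with VAL1 and VAL2 sites had 33.3% and 33.1% in val1val2 at 500 bp upstream, against 39.9% and 40.5% in Col-0. At 1000 bp upstream they had 28.8% and 28.8% in val1val2, against 32.9% and 33.0% in Col-0.

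**Figure D3:**
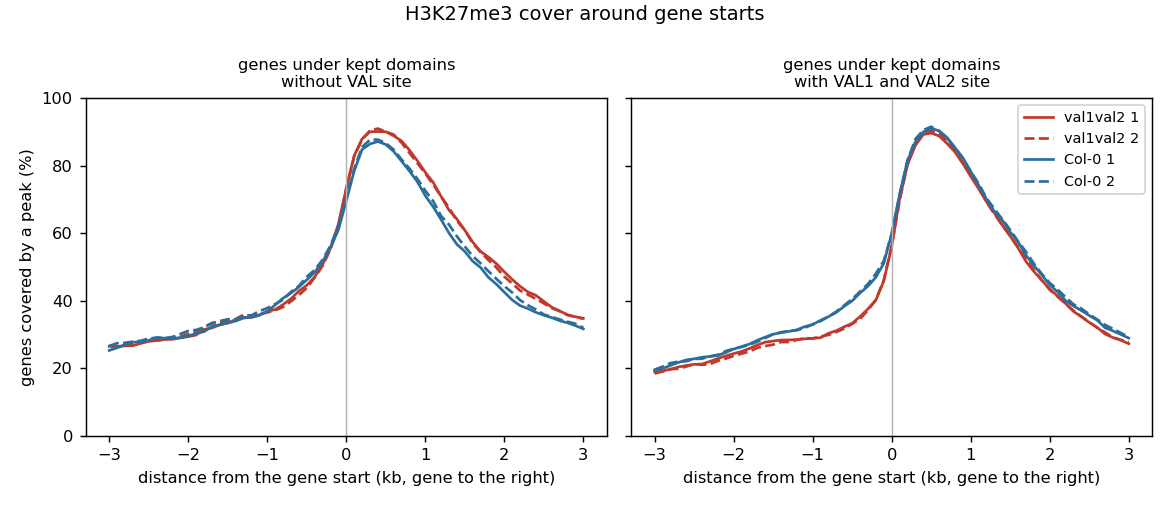
Share of genes covered by an H3K27me3 peak (%) by distance from the gene start (kb), in each val1val2 and Col-0 library, for the 1908 genes under kept domains without VAL site (left) and the 2770 genes under kept domains with VAL1 and VAL2 sites (right). On the left the val1val2 lines lie above the Col-0 lines inside the gene, at 78.0% and 77.6% against 71.1% and 72.5% at 1000 bp.

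Some gene families supplied more of the covered genes than others. Of the 364 F-box genes under any domain, 180 lay under domains without a VAL site (49.5%, interval 44.2 to 54.7%), against 27.3% for all genes under a domain. F-box proteins are the substrate receptors of SCF ubiquitin ligases, and the family is large and often arranged in tandem in Arabidopsis. High shares were also found for MATH/TRAF genes, with 24 of 44 (54.5%, interval 38.8 to 69.6%), for S-protein homologues of the self-incompatibility S1 family, with 15 of 33 (45.5%, interval 28.1 to 63.6%), for disease resistance genes of the NBS-LRR class, with 22 of 50 (44.0%, interval 29.99 to 58.7%), and for receptor kinases, with 44 of 101 (43.6%, interval 33.7 to 53.8%). Expansins had 8 of 18 (44.4%), with an interval of 21.5 to 69.2% that includes the share over all genes. Families are tandem arrays in part, so genes of 1 family can share a domain and are not independent.

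Several families of transcription factors had lower shares. WRKY genes had 4 of 41 (9.76%, interval 2.72 to 23.1%), AP2/ERF genes 7 of 58 (12.1%, interval 4.99 to 23.3%) and MYB genes 17 of 94 (18.1%, interval 10.9 to 27.4%). The intervals of bHLH genes, with 12 of 63 (19.0%, interval 10.2 to 30.9%), of NAC genes, with 13 of 65 (20%, interval 11.1 to 31.8%), and of homeobox and homeodomain-like genes, with 20 of 98 (20.4%, interval 12.9 to 29.7%), include the share over all genes, as does that of MYB genes by a small margin. Peroxidase genes had 7 of 54 (13.0%, interval 5.37 to 24.9%). B3 genes, the family of VAL1 and VAL2, had 12 of 36 (33.3%, interval 18.6 to 51.0%). MADS-box genes were close to the share of all genes, with 19 of 65 (29.2%), as were pectin lyases and pectinesterases, with 44 of 148 (29.7%), and cytochromes P450, with 39 of 138 (28.3%). The 4 WRKY genes were WRKY9, WRKY10, WRKY55 and WRKY68, and the 7 AP2/ERF genes included BBM, ABI4, PUCHI, SHN2 and SHN3.

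At the F-box genes, domains with higher and with lower enrichment in the mutant were nearly equal in number. The 151 domains touching these 180 genes had a median log2 ratio of 0.0075, with both val1val2 values above Col-0 at 57 and below at 60 of the 150 with a peak in all lists, and median fold enrichments of 1.97 in val1val2, against 2.00 in Col-0. Cytochrome P450 genes had 23 domains higher and 9 lower of 38, with a median log2 ratio of 0.090. Pectin lyases and pectinesterases had 13 higher and 20 lower of 46, with a median log2 ratio of −0.073. Over all domains without a VAL site 48.8% were higher and 29.5% lower, and over all domains 42% and 38.3%. These families were read from the annotation's product names, and a gene whose product name lacks the family's name was not counted.

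**Figure D4:**
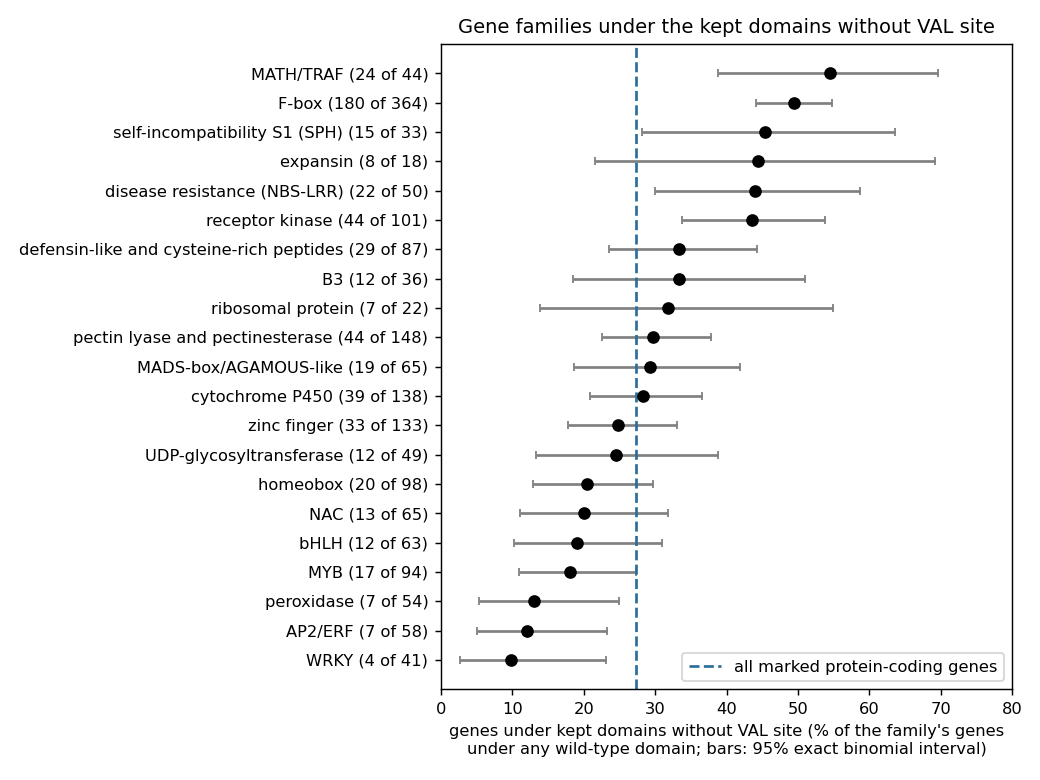
For each gene family with at least 15 genes under any wild-type domain, the share of those genes (%) that lay under kept domains without VAL site, with 95% exact binomial intervals; the dashed line is the share over all protein-coding genes under a domain (27.3%). F-box genes (49.5%) lie to the right of the line and WRKY genes (9.76%) to the left.

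Loci other than protein-coding genes were present as well. Of 427 pseudogenes under any domain, a class that holds transposable element genes in this annotation, 189 lay under domains without a VAL site (44.3%). For lncRNA genes the count was 203 of 721 (28.2%), and for miRNA genes 29 of 112 (25.9%). By bases, 34.9% of the domains was coding sequence, 5.25% untranslated exon, 14.9% intron, 4.20% pseudogene and 38.7% intergenic. In kept domains with VAL1 and VAL2 sites, untranslated exons held 8.49% and pseudogenes 1.62% of bases. Pseudogenes held 1.68% of bases in kept domains with a VAL2 site only, 5.05% in those with a VAL1 site only and 8.67% in the genome. Of the 2209 domains, 1061 (48.0%) contained the start of a protein-coding gene, 518 (23.4%) contained a whole gene and 460 (20.8%) touched none. Over all domains the shares were close to these, at 44.0%, 20.1% and 20.4%.

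The domains were spread over all 5 chromosomes, with between 26.2% and 28.5% of each chromosome's domains. A larger share of them than of the other classes lay in gene-poor regions, though a smaller one than of the genome. In 500-kb bins with under 25% of bases in protein-coding genes lay 150 of the 2209 (6.79%, interval 5.78 to 7.92%), against 1.87% of kept domains with VAL1 and VAL2 sites (interval 1.40 to 2.44%) and 3.38% of all domains. Such bins make up 15.1% of the genome.

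Some domains without a VAL site followed each other in the order of domains. Taken along the chromosomes, the 2209 formed 1312 runs not interrupted by a domain of another class. Of these runs, 204 held 3 or more and together 849 domains. The 2209 were 27.1% of all domains, and the number of runs that this share alone would give was not tested. A run need not be compact. A run of 10 at chr2:2147368-3529404 spanned 1382 kb, with 4 of its 174 genes covered over at least 20%. A run of 11 at chr4:5243783-5455980 spanned 212 kb, with 7 of its 31 genes covered. A run of 11 at chr1:12287847-12333693 lay over a cluster of AIG1-type and other P-loop nucleotide-binding protein genes, a family known from pathogen responses, and 10 of its 12 genes were covered over at least 20%. Its median fold enrichments were 1.47 and 1.46 in val1val2, against 1.46 and 1.52 in Col-0. A run of 10 at chr3:7734403-7770298 lay over genes for cysteine-rich repeat secretory proteins, and 13 of its 14 genes were covered. Its medians were 1.32 and 1.30 in val1val2, against 1.34 and 1.31 in Col-0. In the mutant 8 of its 10 domains were completely covered, against 57.1% of all domains without a VAL site. A run of 10 at chr3:15825435-15948840 held several F-box genes and had higher medians, at 2.42 and 2.41 in val1val2, against 1.99 and 1.98 in Col-0.

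The density of the RY core was close to that of kept domains with a VAL2 site only and to that of the genome. It occurred 0.56 times per kb, against 0.58 in kept domains with a VAL2 site only, 0.81 in those with a VAL1 site only, 0.82 in those with VAL1 and VAL2 sites, 1.42 in domains that were not kept and had a VAL site, and 0.50 in the genome. Domains that were not kept although they had no VAL site, 169 in all, had 1.35 per kb. In the central 200 bp, 222 domains held the core (10.05%, interval 8.83 to 11.4%), against 10.6% of kept domains with both sites, 9.63% and 8.51% of those with only a VAL2 or only a VAL1 site, 16.0% and 18.0% of the domains not kept without and with a VAL site, and 8.06% of all 200-bp windows of the genome. Anywhere in the domain it was found in 1179 of 2209 (53.4%), among them WOX5 with 7 matches in its domain. A match is a description of letters. As a check of the alignment of lists and reference, the core lay in the 200-bp window at 40.5% of shared VAL1 summits, against 8.71% of windows 1 kb away.

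The telobox core was found in the central window of 164 domains (7.42%, interval 6.37 to 8.60%), against 5.78% of kept domains with both sites (interval 4.95 to 6.70%). Kept domains with only a VAL1 or only a VAL2 site had 7.57% and 5.70%. The domains not kept without and with a VAL site had 2.96% and 4.03%, and genome windows 5.07%. Over whole domains the telobox density was 0.36 per kb, against 0.34 in kept domains with both sites. It was 0.36 in those with a VAL1 site only and 0.38 in those with a VAL2 site only. The GA repeat was in 18.1% of central windows, against 17.2% of genome windows. The G-box (CACGTG on both strands, a core of bZIP and bHLH sites) was in 2.44%, against 4.05% of kept domains with both sites and 2.197% of genome windows. Kept domains with only a VAL2 or only a VAL1 site had 2.44% and 2.60%. Over whole domains the G-box density was 0.11 per kb, against 0.19 with both sites and 0.12 in the genome. It was 0.14 with a VAL2 site only and 0.14 with a VAL1 site only. The GC content was 36.1% in domains without a VAL site, against 36.9% with both sites. Domains of a class share a genome and often a neighbour, and no test over them was made.

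**Figure D5:**
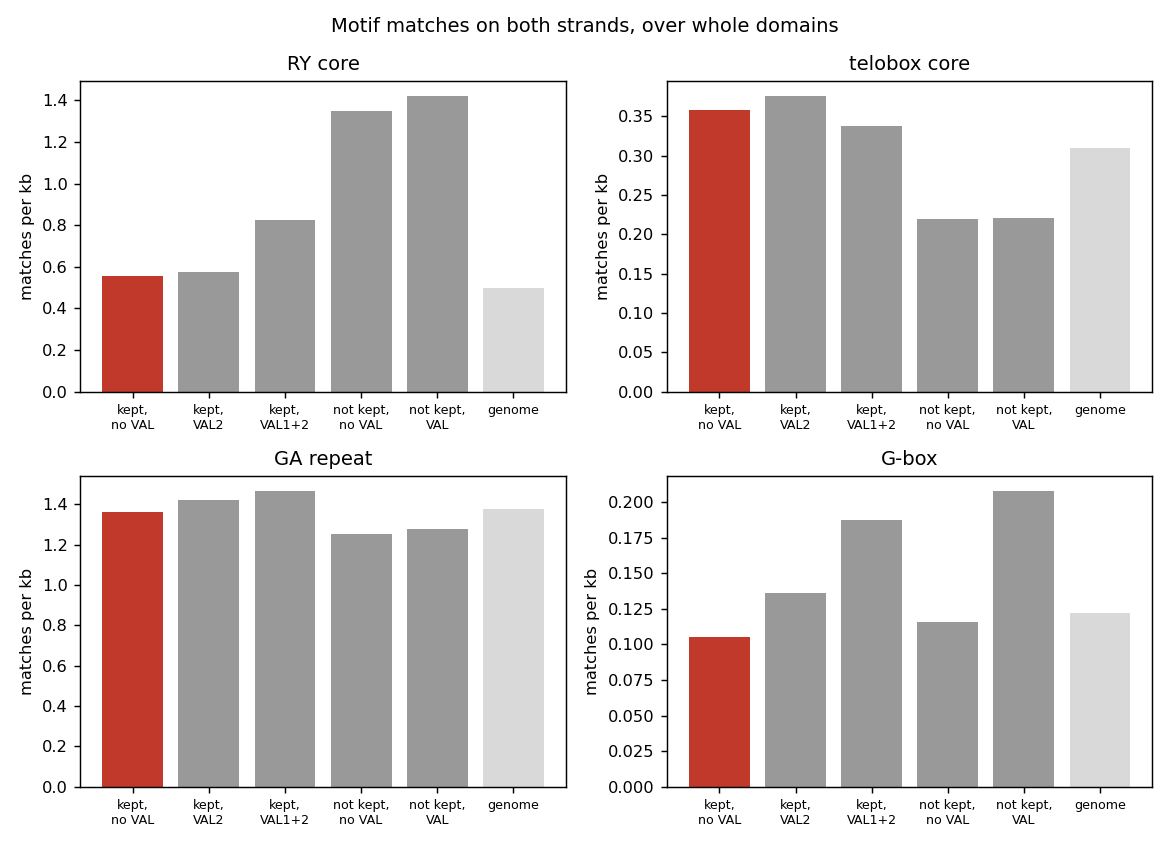
Matches per kb on both strands over whole domains (bars, from 0) for the RY core, the telobox core, the GA repeat and the G-box, in kept domains without VAL site (red), other classes of domain (grey) and the genome (light grey). The RY core has 0.56 matches per kb in kept domains without VAL site, against 1.42 in domains not kept with a VAL site.

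The absence of a VAL site depends on how a site is defined. A VAL1 summit present in only 1 of the 2 lists lay within 1 kb of 901 domains (40.8%), at 494 in list 1 and 583 in list 2. These summits were weak within their lists, with median fold enrichments of 1.54 and 1.86, against 1.68 and 2.15 for all summits of list 1 and list 2. The remaining 1308 domains had none in either list. With VAL peaks restricted to a −log10 q of at least 2, 3498 kept domains had no site, and counting only sites inside the domain 4179 had none. With H3K27me3 peaks restricted to a −log10 q of at least 10, 451 kept domains without site were left. The nearest site that met the definition was a median of 3527 bp away, with quartiles of 1894 and 6639 bp. The median distance to the nearest domain of any class was 2498 bp.

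At the limits of the rule, the shortest members measured 200, 200 and 201 bp, and the longest intervals left out for length 196, 193 and 192 bp. The least covered members had 50.04%, 50.2% and 50.4% of their length under val1val2 peaks, and the domains just left out 49.4%, 49.4% and 49.2%. The members nearest to a VAL site as defined here lay 1001, 1002 and 1004 bp from it, and the kept domains just left out 998, 998 and 997 bp.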

How the data were processed

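ChIP-seq peak lists of 7 samples were used: val1val2 H3K27me3 (2), Col-0 H3K27me3 (2), VAL1-GFP (2) and VAL2-GFP (1). The submitters' processing notes name MACS2 and the TAIR10 build, and for data they do not specify also Cuffdiff, Cufflinks 2.2.1 and TopHat2 2.1.1. Aligner, MACS2 version, control and calling options: not given in the sources used here. Per the file headers, the authors deposited a pileup (signal of coverage) and a fold enrichment (ratio over local background) for each peak. They also deposited −log10 p and −log10 q, whose headers were damaged, so both were identified by the usual MACS2 order of columns. The lists give no read totals, so depth is unknown, and columns of other series numbered 0.

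Peaks were merged within a list. Coordinates are 1-based. The reference was TAIR10.1 from RefSeq, with 27444 nuclear protein-coding genes, and every peak ended within its chromosome. A gene was counted when domains covered at least 20% of it. A fold enrichment was taken from the peak with the longest overlap, and log2 ratios compare the means of 2 libraries. A peak length was the sum over all peaks of a list that touched the domain. Motif windows were the central 200 bp. Intervals are exact binomial (Clopper-Pearson, 95%). No test across domains was made. The rule was tested on 20 simulated sets and found 491 of 491 expected domains. Members, gene lists and families were chosen with earlier results of these data known. Genes are named from the lists, the 10 longest, the 10 most enriched in Col-0, and the 10 highest and 10 lowest ratios. Python 3 with numpy and scipy was used. Alternatives changed the minimum length, cover, VAL window, VAL1 definition, q limits and peak numbers, and left out each replicate in turn.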

Additional observations from a re-analysis of the deposited data

How the results depend on the processing

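The number of kept domains without VAL site (2209) changed by over 1.5 times with a VAL window of 0 (4179), with VAL1 summits of either list (1308), with H3K27me3 peaks of −log10 q of at least 10 (451) and with VAL peaks of −log10 q of at least 2 (3498). Under the same 4 settings the genes covered (1908) numbered 3567, 1016, 483 and 3136, and the share of wild-type domains (27.1%) was 51.2%, 16.0%, 14.9% and 42.9%. That share was also 22.4% at 90% cover, 19.7% with a window of 2 kb, 25.9% with equal peak numbers, and 24.0% with H3K27me3 peaks of −log10 q of at least 2.

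The median log2 ratio of fold enrichment, val1val2 over Col-0 (0.0493), changed sign to −0.0317 with H3K27me3 peaks of −log10 q of at least 10. It was 0.0139 at −log10 q of at least 2, 0.0313 from 500 bp, 0.0559 at 90% cover, 0.0478 with any overlap, 0.039 with a window of 0, 0.0668 with VAL1 summits of either list, 0.0607 with equal peak numbers and 0.0315 with VAL peaks of −log10 q of at least 2. The share with longer peaks in val1val2 (46.1%) was 42.6% from 500 bp, 53.5% at 90% cover, 48.3% with VAL1 summits of either list, 40.7% and 37.7% at H3K27me3 −log10 q of at least 2 and 10, and 43.5% with VAL peaks of −log10 q of at least 2. The central RY share (10.05%) was 53.4% when the whole domain was searched. The cause was not tested, beyond what each setting removes or adds by construction.

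Leaving out 1 replicate gave 1633 to 2176 domains, 20.02% to 26.6% of wild-type domains, 1356 to 1935 genes, a central RY share of 9.01% to 10.14%, a median log2 ratio of 0.0493 to 0.0632 and a share with longer val1val2 peaks of 47.1% to 60.3%. With 1 H3K27me3 replicate left out, fewer lists had to differ, so the criterion of longer peaks was easier to meet by construction. With 1 VAL1-GFP replicate left out, every summit of the remaining VAL1-GFP list counted as a site. The VAL2-GFP list was the only one of its group and was not left out. No paired analysis was possible because the results come from no test. Depth limits what is called a VAL site: a summit too weak to be listed counts as absent, and the 1 VAL2-GFP list has no replicate to check it.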
